A study of Mus musculus with 24 samples.

Results

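Respiratory chain subunits were followed in the whole lung and the retina of newborn mice that lacked gasdermin D (GSDMD-KO) or did not (WT), with or without exposure to high oxygen. The members were chosen by gene name alone, with no measured value. They were the rows of both count tables whose symbol starts with Ndufa, Ndufb, Ndufc, Ndufs, Ndufv, Uqcr, Cox4i, Cox5, Cox6, Cox7, Cox8, Atp5, mt-Nd, mt-Co, mt-Cytb or mt-Atp, together with Sdha, Sdhb, Sdhc and Sdhd. This gave 102 of the 35817 genes listed in both tables, of which 89 are nuclear-encoded and 13 are encoded by mitochondrial DNA. Left out were 9 genes with a pseudogene name, the 8 Ndufaf genes and Atp5s, which name assembly factors. Complex I accounted for 46 members, complex II for 4, complex III for 9, complex IV for 24 and complex V for 19.

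The respiratory chain sits in the inner mitochondrial membrane. Complexes I and II pass electrons from NADH and succinate to ubiquinone, complex III passes them on to cytochrome c, complex IV (cytochrome c oxidase) hands them to oxygen, and complex V (ATP synthase) makes ATP from the proton gradient. Most subunits are nuclear genes, but the catalytic core of complexes I, III and IV and part of complex V are built from proteins that mitochondrial DNA encodes, so that both genomes have to supply each of these complexes. Several complex IV subunits come in alternative forms: Cox4i2 replaces Cox4i1 in lung and in some mural cells and is known as a hypoxia-linked form, Ndufa4l2 is a hypoxia-induced relative of the complex IV subunit Ndufa4, and Cox6a2, Cox7a1 and Cox8b are the heart and skeletal muscle forms.

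All mice were C57/B6 littermates from heterozygote matings. The GSDMD-KO line is a global knockout made by CRISPR/Cas9 with a short exonic deletion. For the lung, pups breathed room air (RA, 21% O2) or 85% O2 from postnatal day 1 to day 14, and the lungs were taken on day 15. For the retina, pups stayed in RA, or breathed 75% O2 from day 7 to day 12 and then returned to RA until the retinas were taken on day 18. Each tissue had 4 groups of 3 mice (WT-RA, WT-O2, KO-RA and KO-O2), 24 samples in all, and the exposed retinas were thus sampled after a recovery in RA while the exposed lungs came from high oxygen. The lung libraries held 28763661 to 29604254 counts each and the retina libraries 24863257 to 29093035. Gsdmd itself was lower in every GSDMD-KO lung (11.7 to 24.8 CPM, counts scaled to library size) than in any WT lung (32.1 to 42.3 CPM), whereas its retinal levels (0.419 to 5.70 CPM in WT, 0.636 to 2.95 CPM in GSDMD-KO) overlapped.

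Some libraries stood apart from the rest. Transcripts of the lens gene Cryaa reached 6242 and 21286 CPM in WT-RA retinas 2 and 3 and 8315 CPM in KO-RA retina 3. The median retinal changes are therefore also given without these 3 libraries. Erythroid transcripts made up 1.00% to 1.14% of the counts in WT-RA lungs and 0.180% to 0.257% in WT-O2 lungs, against 0.857% to 1.75% in KO-RA and 0.380% to 1.79% in KO-O2 lungs. Y-linked genes were expressed in 0, 1, 2 and 3 of the 3 lungs of WT-RA, WT-O2, KO-RA and KO-O2, and in 3, 1, 3 and 1 of the retinas of the same groups. In bulk tissue, a change in the number of cells of a type and a change in RNA per cell cannot be told apart.

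The first question was how hyperoxia changed the subunits in the lung. In both genotypes most members stood higher in O2 than in RA by a modest amount. A few members fell, with the largest falls in complex IV. After removal of low counts 96 members were tested. In WT lungs 38 members rose and 7 fell at an adjusted p under 0.1 (edgeR's quasi-likelihood test on all 12 lungs, Benjamini-Hochberg adjustment over all 16819 genes tested). Across all genes 24.5% rose and 24.7% fell in the same comparison, 49.2% in either direction. In GSDMD-KO lungs 54 members rose and 6 fell, beside 23.3% and 23.4% of all genes, 46.7% in either direction. The median log2 fold change of the members was 0.17 in WT and 0.25 in GSDMD-KO. At an adjusted p under 0.1 and an unadjusted p under 0.05, 3 members in WT changed at least 2-fold (11.6% of all genes). In GSDMD-KO 1 member did (10.6%). The 3 RA and 3 O2 lungs did not overlap for 37 members in WT and 61 in GSDMD-KO, against 49.8% and 52.4% of all genes.

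Of the 38 members that rose in WT lungs, 35 also rose in GSDMD-KO lungs, which is 92.1% of the WT list and 64.8% of the GSDMD-KO list. Of the members that fell, 5 were shared. The same overlap was not counted over all genes, so it is not shown to be particular to the respiratory chain. Erythroid share and exposure did not overlap in WT lungs, so the 2 cannot be told apart there. With the mean of the erythroid genes as a covariate, 5 members passed as higher (Ndufa9, Ndufa10, Ndufa11, Ndufa12 and Atp5b) and 4 as lower (Cox4i2, Ndufa4l2, Cox7a2l and Cox8b), beside 21.6% of all genes in either direction. The median log2 fold change of the nuclear members was 0.14 without the covariate and 0.15 with it, while their median SE went from 0.096 to 0.196. The WT count was 28 instead of 45 without WT-RA lung 2 and 29 without WT-O2 lung 2. In GSDMD-KO lungs the erythroid share of RA and O2 mice overlapped. There 50 members were higher and 4 lower with the same covariate, beside 44.7% of all genes in either direction. Markers of other lung cells moved with exposure. Of 7 lung epithelium markers 5 fell in each genotype, and their summed level was 21274 to 23706 CPM in WT-RA, 15045 to 18130 CPM in WT-O2, 21649 to 24044 CPM in KO-RA and 14817 to 17244 CPM in KO-O2 lungs, none being at 0 in all lungs. Of 5 endothelial markers 3 fell in WT, and 2 fell and 1 rose in GSDMD-KO, with summed levels of 3322 to 3715, 2558 to 2962, 3026 to 3124 and 2335 to 3055 CPM in the same groups. Their part in the rise of the members was not tested.

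**Figure D1:**
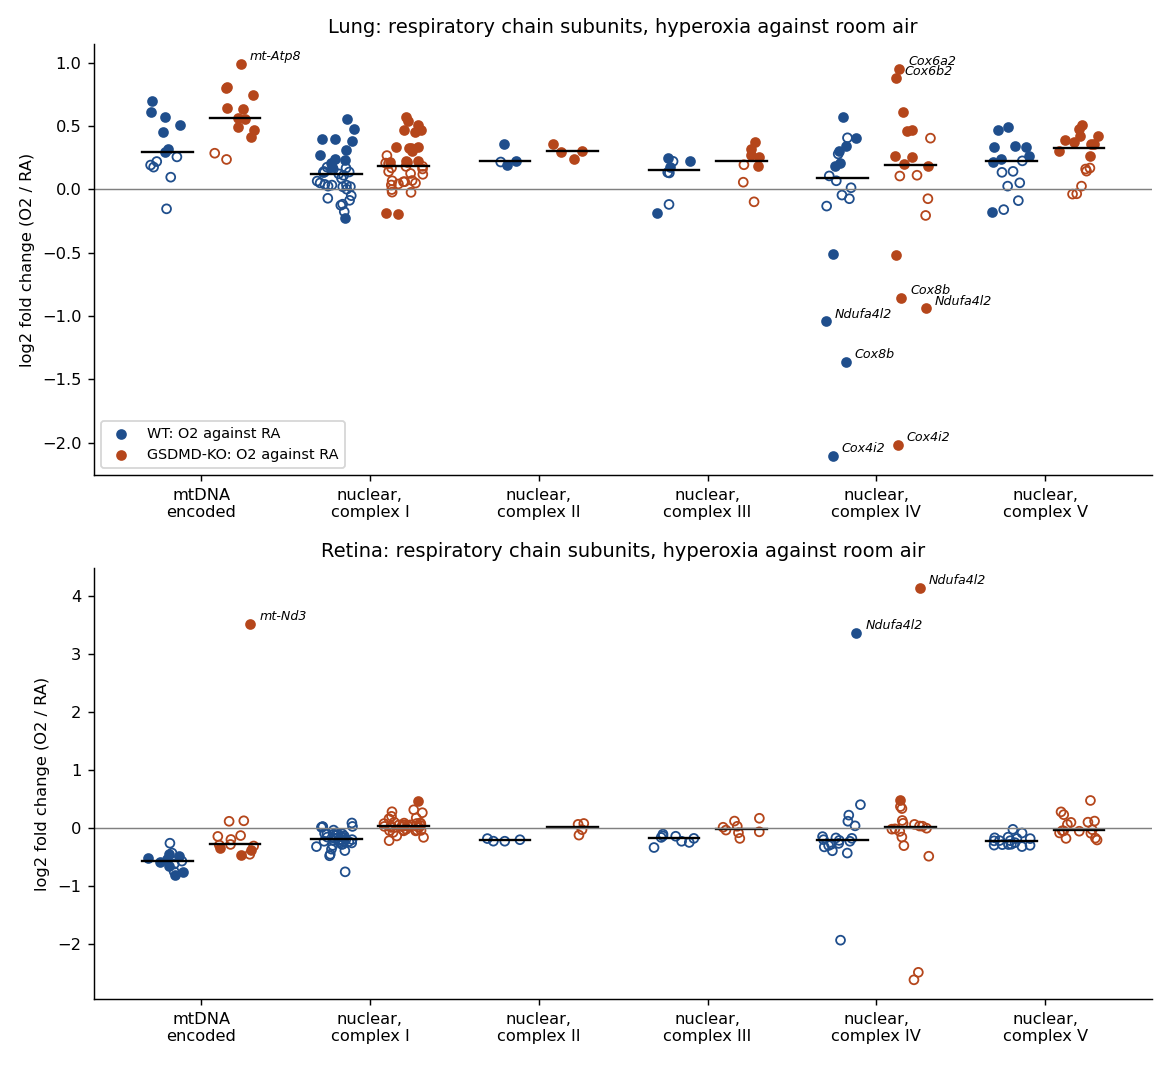
Log2 fold change (O2 against RA) of each respiratory chain subunit with a mean of at least 1 CPM in lung (top) and retina (bottom), grouped by genome and complex, with WT in blue and GSDMD-KO in orange. Filled points passed an adjusted p of 0.1, open points did not, and bars are medians over the points. Most lung points lie above 0 except Cox4i2, Ndufa4l2, Cox8b and a few others, and in the retina Ndufa4l2 stands far above all other nuclear subunits in both genotypes.

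The nuclear subunits of complex I carry the peripheral arm and the accessory shell. In WT lungs 11 of 37 nuclear members rose and 1 fell, beside 24.5% and 24.7% of all genes. In GSDMD-KO lungs 15 rose and 2 fell, beside 23.3% and 23.4%. Ndufa9, an accessory subunit near the quinone site, was at 35.4, 38.5 and 40.6 CPM in WT-RA and 47.8, 54.0 and 48.8 CPM in WT-O2 lungs, and at 30.6, 34.9 and 31.0 CPM in KO-RA and 47.2, 51.1 and 45.2 CPM in KO-O2 lungs. No exposed lung overlapped with an RA lung of either genotype. The log2 fold changes were 0.40 ± 0.09 (SE, adjusted p = 0.00205) in WT and 0.57 ± 0.09 (adjusted p = 0.00013) in GSDMD-KO. Ndufa12 (0.48 in WT and 0.54 in GSDMD-KO), Ndufa11 (0.56 and 0.47) and Ndufa10 (0.38 and 0.51) rose by similar amounts. The flavin-bearing core subunit Ndufv1 rose in WT (0.18), and the iron-sulphur subunit Ndufs1 rose in GSDMD-KO (0.34). Ndufa6 fell in both genotypes (-0.22 and -0.19), and Ndufb11 fell in GSDMD-KO (-0.19).

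Complex II, or succinate dehydrogenase, has no mitochondrially encoded part and is shared with the TCA cycle. Its flavoprotein Sdha was at 119, 125 and 117 CPM in WT-RA and 142, 140 and 139 CPM in WT-O2 lungs, and at 111, 104 and 118 CPM in KO-RA and 133, 138 and 137 CPM in KO-O2 lungs. The exposed lungs lay above the RA lungs of their genotype without overlap (log2 fold changes 0.23 and 0.30). Sdhb and Sdhd rose in both genotypes as well, by 0.19 and 0.36 in WT and by 0.24 and 0.36 in GSDMD-KO. Sdhc rose in GSDMD-KO (0.30) and had 0.22 in WT, where it missed the threshold.

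In complex III, 3 of 8 nuclear members rose and 1 fell in WT lungs, beside 24.5% and 24.7% of all genes. In GSDMD-KO lungs 5 rose, beside 23.3% of all genes. The core proteins Uqcrc1 and Uqcrc2 rose in WT by 0.22 and 0.18, and Uqcrc2 rose in GSDMD-KO by 0.27. Uqcrfs1, the Rieske iron-sulphur protein, rose in GSDMD-KO (0.25). The hinge protein Uqcrh fell in WT (-0.19) and had -0.10 in GSDMD-KO.

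In complex V, 8 of 16 nuclear members rose and 1 fell in WT lungs, beside 24.5% and 24.7% of all genes. In GSDMD-KO lungs 10 rose, beside 23.3% of all genes. The catalytic beta subunit Atp5b was at 393, 431.5 and 437.5 CPM in WT-RA and 567, 602 and 606 CPM in WT-O2 lungs, and at 421, 421 and 388 CPM in KO-RA and 576, 615 and 556 CPM in KO-O2 lungs. All exposed lungs lay above all RA lungs (log2 fold change 0.49 ± 0.08, adjusted p = 0.000188, in WT and 0.51 ± 0.08, adjusted p = 0.000162, in GSDMD-KO). Its alpha partner Atp5a1 rose by 0.33 and 0.42, and Atp5g1, one of the genes for the membrane ring protein c, rose by 0.47 and 0.48. Atp5j, a coupling subunit, fell in WT lungs (-0.18).

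Complex IV had forms that rose and forms that fell. Of its 18 nuclear members tested, 6 rose and 4 fell in WT lungs, beside 24.5% and 24.7% of all genes. In GSDMD-KO lungs 9 rose and 4 fell, beside 23.3% and 23.4%. Among those that rose, Cox5a was at 41.6, 44.9 and 49.95 CPM in WT-RA and 55.95, 60.25 and 64.5 CPM in WT-O2 lungs, and at 38.4, 40.2 and 38.2 CPM in KO-RA and 57.3, 58.0 and 63.4 CPM in KO-O2 lungs. The groups did not overlap, and the log2 fold changes were 0.41 ± 0.08 and 0.61 ± 0.08. Cox5b (0.30 and 0.25), Cox7b (0.34 and 0.47), Cox7a2 (0.20 and 0.26) and Ndufa4 (0.19 and 0.20) rose in both genotypes. Cox6b2, a form best known from testis, rose by 0.57 and 0.88 at 10.2 to 27.0 CPM. The muscle form Cox6a2 rose in GSDMD-KO (0.95) and had 0.41 in WT.

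The largest fall of any member in the lung was that of Cox4i2. It was at 96.2, 88.0 and 131 CPM in WT-RA and 21.6, 28.5 and 23.4 CPM in WT-O2 lungs, and at 104, 108 and 83.1 CPM in KO-RA and 22.6, 22.0 and 28.2 CPM in KO-O2 lungs. Every exposed lung lay far below every RA lung. The log2 fold change was -2.10 ± 0.17 (adjusted p = 7.11e-07) in WT and -2.02 ± 0.17 (adjusted p = 1.21e-06) in GSDMD-KO. The ubiquitous partner Cox4i1 was at 128 to 167 CPM in all 12 lungs, with log2 fold changes of -0.13 and -0.07 that did not pass the test. Per kilobase of transcript, Cox4i2 thus made up 37.7% to 45.1% of the sum of Cox4i1 and Cox4i2 in RA lungs and 12.8% to 17.8% in O2 lungs of both genotypes.

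Ndufa4l2 fell beside it. Its level was 68.3, 66.9 and 86.4 CPM in WT-RA and 33.7, 38.3 and 35.7 CPM in WT-O2 lungs, and 72.5, 76.9 and 56.1 CPM in KO-RA and 30.9, 36.9 and 39.4 CPM in KO-O2 lungs. Again no exposed lung overlapped with an RA lung (-1.04 ± 0.13, adjusted p = 2.57e-05, in WT and -0.94 ± 0.13, adjusted p = 7.21e-05, in GSDMD-KO). Ndufa4l2 held 37.0% to 47.1% of the sum of Ndufa4 and Ndufa4l2 per kilobase in RA lungs and 23.8% to 26.7% in O2 lungs. Cox7a2l fell from 144 to 163 CPM in RA lungs to 97.7 to 112 CPM in O2 lungs (-0.51 and -0.52). The muscle form Cox8b fell from 2.27 to 4.82 CPM to 1.15 to 1.84 CPM (-1.36 and -0.86).

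**Figure D2:**
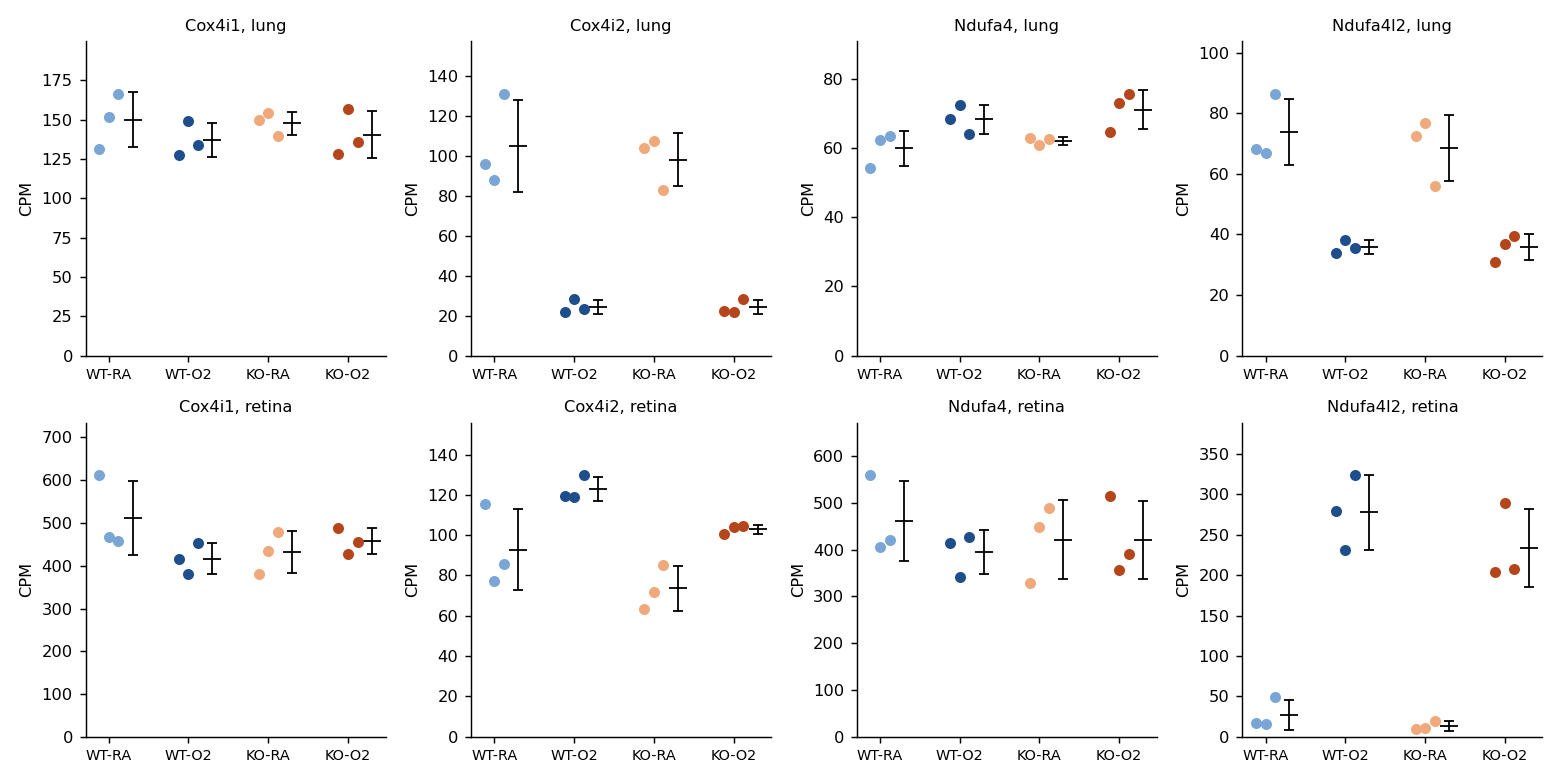
Level in CPM of Cox4i1, Cox4i2, Ndufa4 and Ndufa4l2 in each mouse (points) with the group mean ± SD (bars, n = 3) in lung (top) and retina (bottom). In O2 lungs Cox4i2 and Ndufa4l2 lie below all RA lungs, and in exposed retinas Ndufa4l2 lies at 204 to 324 CPM against 9.80 to 48.9 CPM in RA.

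Markers of cells that carry these forms moved as follows. Of 9 pericyte and smooth muscle markers, 3 rose and 3 fell in WT lungs and 3 rose and 5 fell in GSDMD-KO lungs. The pericyte marker Higd1b fell by 1.14 and 1.11, Pdgfrb by 0.75 and 0.53 and Notch3 by 0.55 and 0.46 on the log2 scale, while Cspg4 rose by 1.12 and 1.17. The summed level of the 9 markers ranged over 1049 to 1460 CPM in WT-RA, 1375 to 1548 CPM in WT-O2, 1047 to 1119 CPM in KO-RA and 1019 to 1576 CPM in KO-O2 lungs, and none of them was at 0 in all lungs. Of 9 heart muscle markers, 4 fell in WT and 2 in GSDMD-KO lungs, and their summed level was 196 to 423 CPM in WT-RA, 209 to 248 CPM in WT-O2, 168 to 183 CPM in KO-RA and 153 to 252 CPM in KO-O2 lungs. The part of these cells in the change of Cox4i2, Ndufa4l2, Cox6a2 and Cox8b was not tested.

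Of the 13 mitochondrially encoded subunits, 7 rose and none fell in WT lungs at an adjusted p under 0.1, beside 24.5% of all genes that rose, and 11 rose and none fell in GSDMD-KO lungs, beside 23.3%. In WT 12 of the 13 log2 fold changes were above 0, and in GSDMD-KO 13 were. Their median log2 fold change was 0.29 in WT and 0.57 in GSDMD-KO. mt-Nd5, a proton-pumping subunit of complex I, was at 3299, 2528 and 3032 CPM in WT-RA and 5756, 4545 and 4050 CPM in WT-O2 lungs, and at 2665, 2923 and 2737 CPM in KO-RA and 4949, 4355 and 5257 CPM in KO-O2 lungs. The exposed mice lay above the RA mice without overlap (0.70 ± 0.13, adjusted p = 0.000812, and 0.81 ± 0.13, adjusted p = 0.000272). mt-Co1, the catalytic subunit of complex IV, rose by 0.51 and 0.74, mt-Cytb, the only mitochondrially encoded subunit of complex III, by 0.32 and 0.41, and mt-Atp8 of complex V by 0.61 and 0.99. With the erythroid covariate none of the 13 passed in WT lungs, beside 21.6% of all genes. Their median there stayed at 0.29 and their median SE went from 0.136 to 0.268. In GSDMD-KO lungs 11 passed with this covariate, beside 44.7% of all genes, and the median SE was 0.142.

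**Figure D3:**
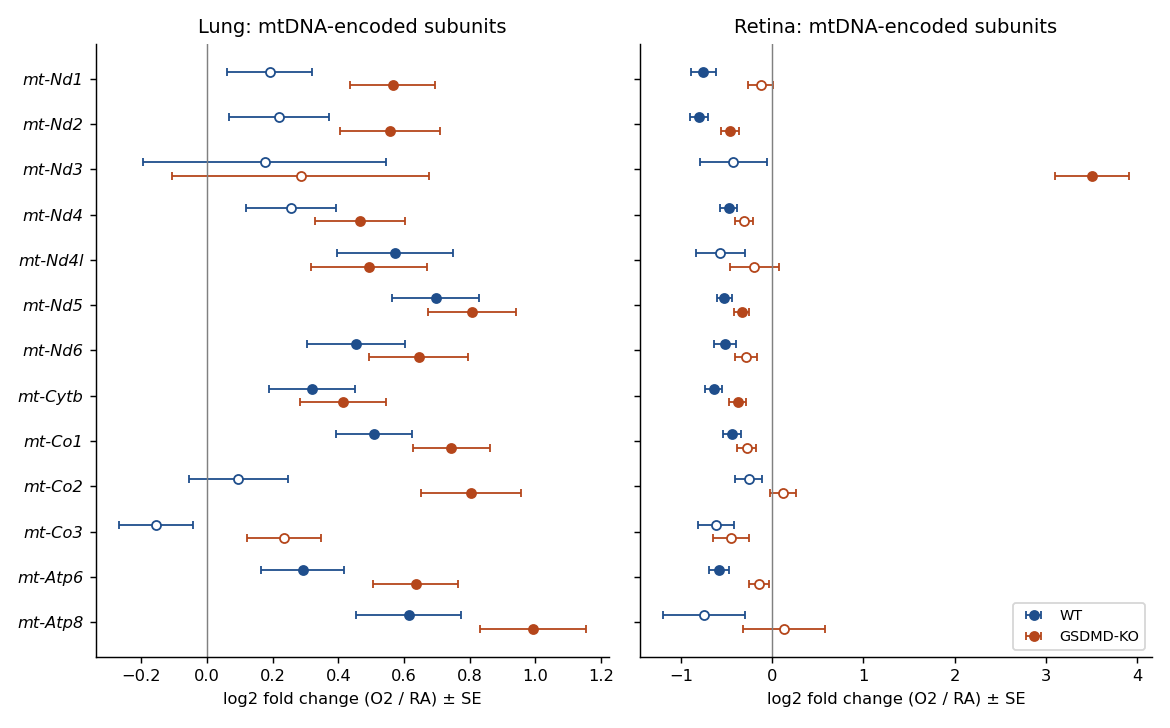
Log2 fold change ± SE (O2 against RA, 12 samples per tissue in the fit) of the 13 mitochondrially encoded subunits in lung (left) and retina (right). Blue is WT, orange is GSDMD-KO, and filled points passed an adjusted p of 0.1. Lung points lie mostly right of 0 and retina points mostly left of it, apart from mt-Nd3 in the GSDMD-KO retina at 3.51.

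As a share of all counts, the 13 mitochondrially encoded genes took 4.09% to 4.74% in WT-RA lungs and 4.74% to 6.21% in WT-O2 lungs, the 2 groups touching at 4.74%. In GSDMD-KO lungs the share was 3.80% to 4.16% in RA and 5.38% to 6.43% in O2, without overlap. The nuclear subunits together took 0.510% to 0.596% in WT-RA, 0.577% to 0.635% in WT-O2, 0.500% to 0.548% in KO-RA and 0.562% to 0.624% in KO-O2 lungs. In retina both shares were larger than in lung, at 9.75% to 14.7% for mitochondrially encoded and 1.47% to 2.05% for nuclear subunits, although shares of counts in the 2 tissues come from separate tables.

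**Figure D4:**
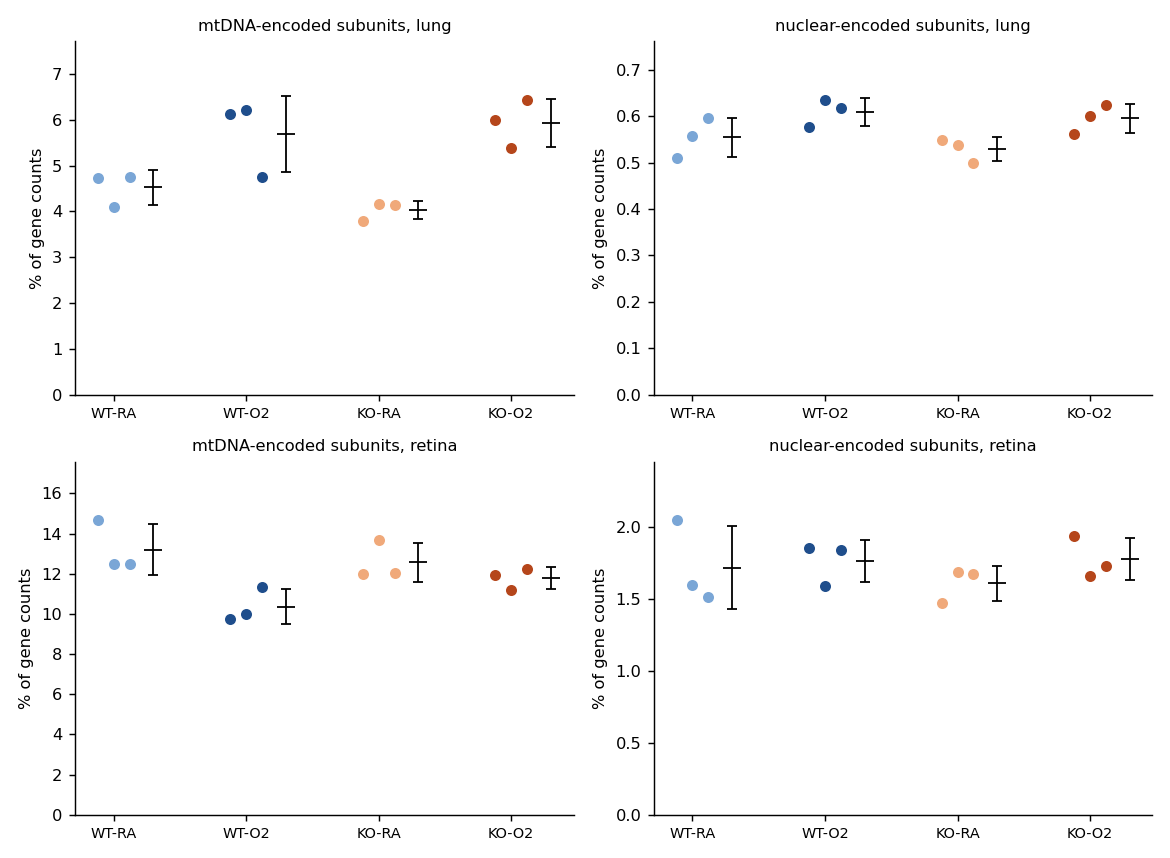
Percent of gene counts per library taken by the mitochondrially encoded (left) and nuclear-encoded (right) subunits in lung (top) and retina (bottom), as points per mouse with the mean ± SD (n = 3). KO-O2 lungs lie above KO-RA lungs for the mitochondrial share, and WT-O2 retinas (9.75% to 11.3%) lie below WT-RA retinas (12.5% to 14.7%).

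Genes around the chain were counted in lists of their own. Of 15 TCA cycle genes, 10 rose and none fell in WT lungs and 11 rose and none fell in GSDMD-KO lungs, with citrate synthase (Cs) at 0.40 and 0.56. Of 40 assembly factors, 7 rose and 4 fell in WT and 7 rose and 2 fell in GSDMD-KO. Of 20 carriers and regulators, 6 rose and 4 fell in WT and 8 rose and 4 fell in GSDMD-KO. Across all genes 24.5% rose and 24.7% fell in WT lungs, and 23.3% rose and 23.4% fell in GSDMD-KO lungs. Ppargc1a, a coactivator known to drive mitochondrial biogenesis, rose by 0.96 and 0.85. The mitochondrial DNA polymerase Polg fell by 0.33 and 0.44, and the mitochondrial transcription factor Tfam fell in WT by 0.35 and had -0.07 in GSDMD-KO. Nrf1, a transcription factor for nuclear subunit genes, had 0.08 in WT and rose by 0.23 in GSDMD-KO. In retina, 1 of the 15 TCA cycle genes rose in WT and none in GSDMD-KO. Among the 40 assembly factors and 20 carriers and regulators no gene passed in WT, where 5.16% of all genes passed. In GSDMD-KO, where 7.82% of all genes passed, 1 and 2 of these rose and 2 and none fell.

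The promoters of the nuclear members were read from RefSeq (GRCm38.p6, 250 bases before to 50 bases after the gene start). A promoter was listed for 67 of the 88 nuclear symbols. The NRF1 palindrome, searched on both strands and seen in capitals in the stretches printed here, was present in 5 of these 67 promoters and in 0.977% of all 27025 promoters listed. Among the members that rose in both genotypes it was present in 1 of 23, and among the other tested nuclear members in 4 of 43. The ETS-family core CCGGAAG was present in 15 of 67 member promoters, 22.4%, beside 9.12% of all promoters, and in 4 of the 23 that rose in both genotypes. A match of letters is a description of the window, not a binding site. The following stretches, shown because they carry the NRF1 letters close to the start in a subunit that rose in both genotypes (Ndufa11) and in others of complex V, have the site in capitals. They lie at chr17:56717687-56717726 on the plus strand, and at chr15:102671065-102671104 and chr5:108434425-108434464 on the minus strand.
Ndufa11: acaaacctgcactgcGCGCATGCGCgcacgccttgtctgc
Atp5g2: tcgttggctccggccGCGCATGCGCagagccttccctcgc
Atp5k: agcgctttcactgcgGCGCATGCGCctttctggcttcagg

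The second question was whether exposure left a change in the retina after the return to RA. Of 98 members tested, 1 rose and 8 fell in WT retinas at an adjusted p under 0.1, beside 3.11% and 2.05% of the 19173 genes tested, 5.16% in either direction. In GSDMD-KO retinas 4 rose and 3 fell, beside 4.38% and 3.44% of all genes, 7.82% in either direction. DESeq2 called 15 members in WT and 13 in GSDMD-KO, beside 10.2% and 14.3% of all genes. At an adjusted p under 0.1 and an unadjusted p under 0.05, 1 member in WT changed at least 2-fold (2.04% of all genes). In GSDMD-KO 2 members did (2.19%). RA and exposed retinas did not overlap for 22 members in WT and 13 in GSDMD-KO, against 24% and 26.2% of all genes. All 8 members that fell in WT retinas were mitochondrially encoded. Leaving out the 3 lens-rich libraries leaves 1 WT-RA retina, assumed to vary like the others, so medians are given in place of counts. In WT the median log2 fold change was then -0.62 for the mitochondrially encoded and -0.49 for the nuclear members, against -0.57 and -0.20 with all libraries. In GSDMD-KO it was -0.22 and 0.13, against -0.28 and 0.03. With library totals in place of TMM scaling, the WT split was 2 higher and 5 lower, and the median of all genes shifted to 0.24. The GSDMD-KO count fell from 7 to 3 without KO-RA retina 1, to 4 without KO-RA retina 2 or 3, to 2 without KO-O2 retina 2 and to 4 without KO-O2 retina 3.

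Ndufa4l2 had the largest rise of any member in the retina of either genotype. It was at 16.9, 15.5 and 48.9 CPM in WT-RA and 279, 231 and 324 CPM in WT-O2 retinas, and at 9.80, 10.3 and 19.9 CPM in KO-RA and 204, 289 and 208 CPM in KO-O2 retinas. Every exposed retina lay several times above every RA retina. The log2 fold change was 3.36 ± 0.47 (adjusted p = 0.00651) in WT and 4.13 ± 0.49 (adjusted p = 0.00381) in GSDMD-KO. Its share of the sum with Ndufa4 per kilobase was 1.48% to 7.07% in RA retinas and 20.5% to 34.6% in exposed retinas, while Ndufa4 itself had log2 fold changes of -0.23 and -0.00. All alternatives run, including the one without lens-rich libraries, left the rise of Ndufa4l2 past the threshold in both genotypes.

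Cox4i2 was at 115, 77.2 and 85.8 CPM in WT-RA and 120, 119 and 130 CPM in WT-O2 retinas, and at 63.6, 71.9 and 85.4 CPM in KO-RA and 100.5, 104 and 104 CPM in KO-O2 retinas. The exposed retinas lay above those in RA in each genotype, and the rise passed the test in GSDMD-KO (0.48 ± 0.14, adjusted p = 0.0875) but not in WT (0.40 ± 0.14, adjusted p = 0.172). The call in GSDMD-KO was lost under 11 of 22 alternatives. Pericyte and smooth muscle markers rose as well, 7 of 9 in WT and 5 of 9 in GSDMD-KO, among them Higd1b (1.10 and 1.23) and Kcnj8 (0.91 and 0.64). Their summed level was 91.6 to 127 CPM in WT-RA, 214 to 292 CPM in WT-O2, 104 to 122 CPM in KO-RA and 139 to 225 CPM in KO-O2 retinas, and none was at 0 in all retinas. Their part in the rise of Cox4i2 and Ndufa4l2 was not tested. Of 10 genes of the switch to glycolysis, 3 rose in WT and 2 in GSDMD-KO retinas, among them Egln3 (1.70 and 1.62) and Bnip3 (0.68 and 0.58), both known to respond to low oxygen. In lung 4 of the 10 rose and 2 fell in each genotype, with Egln3 higher (1.19 and 1.48) and Bnip3 lower (-0.37 and -0.32).

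The mitochondrially encoded subunits were lower in exposed WT retinas, with all 13 log2 fold changes below 0 and a median of -0.57. The 8 that passed were mt-Nd2 (-0.80), mt-Nd1 (-0.76), mt-Cytb (-0.64), mt-Atp6 (-0.58), mt-Nd5 (-0.52), mt-Nd6 (-0.51), mt-Nd4 (-0.48) and mt-Co1 (-0.44). mt-Nd2, a proton-pumping subunit of complex I, was at 6574, 5630 and 5770 CPM in WT-RA and 3303, 3295 and 3742 CPM in WT-O2 retinas, and at 5236, 5534 and 5652 CPM in KO-RA and 4055, 4054 and 3810 CPM in KO-O2 retinas. It fell in both genotypes without overlap (-0.80 ± 0.10, adjusted p = 0.00265, and -0.46 ± 0.10, adjusted p = 0.0290). In GSDMD-KO retinas mt-Cytb (-0.38) and mt-Nd5 (-0.33) fell too, and mt-Nd1 had -0.13. With library totals as the scale the 13 WT values stayed below 0 with a median of -0.33, and 5 of them passed. Y-linked genes were expressed in all RA retinas but in only 1 exposed retina of each genotype. With Y-linked expression as a covariate the 13 WT values also stayed below 0, with a median of -0.58, and 5 passed. In GSDMD-KO 1 passed as lower with this covariate, against 3 without it. Markers of retinal cells moved with exposure as well. Of 6 retinal neuron markers 4 fell in WT and 1 in GSDMD-KO, with summed levels of 852 to 1161 CPM in WT-RA, 684 to 714 CPM in WT-O2, 830 to 977 CPM in KO-RA and 711 to 883 CPM in KO-O2 retinas. Of 4 Mueller glia markers 2 fell in WT and 1 in GSDMD-KO (2972 to 4010, 2316 to 2707, 2985 to 3799 and 2907 to 3206 CPM), and of 5 endothelial markers 4 rose in WT and 3 in GSDMD-KO (80.0 to 96.8, 152 to 174, 97.7 to 108 and 127 to 141 CPM). None of these markers was at 0 in all retinas, and their part in the lower mitochondrially encoded subunits was not tested.

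In the retina 85 nuclear subunits were tested, at an adjusted p under 0.1. In WT 1 rose and none fell, beside 3.11% and 2.05% of all genes. In GSDMD-KO 3 rose and none fell, beside 4.38% and 3.44%. The median log2 fold change of the 85 was -0.20 in WT, 0.03 with library totals as the scale and -0.49 without the lens-rich libraries. In GSDMD-KO it was 0.03, and 0.13 without the lens-rich libraries. Cox5a (-0.32 and -0.02), Atp5b (-0.18 and 0.10) and Sdha (-0.20 and 0.07), which had risen in lung, did not pass in the retina of either genotype.

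The third question was whether loss of GSDMD changed the subunits at a given exposure. In lung, 1 member differed in hyperoxia and 1 in RA, beside 0.0416% and 0.488% of all genes, and in retina none differed in hyperoxia and 1 in RA, beside 1.27% and 0.00522% of all genes. In each case the member was mt-Nd3, which was lower in GSDMD-KO. Before adjustment, a p under 0.05 was reached in lung by 1 member in hyperoxia and 9 in RA (6.21% and 10.5% of all genes), and in retina by 5 and 18 (12.6% and 12.7%). DESeq2 called 1 member lower in lung in hyperoxia (0.518% of all genes with an adjusted p), 4 lower in lung in RA (2.49%), 2 higher in retina in hyperoxia (5.8%) and 8 lower in retina in RA (6.47%). The groups did not overlap for 6 members in lung in hyperoxia, 13 in lung in RA, 7 in retina in hyperoxia and 10 in retina in RA, against 12.2%, 15.2%, 19.9% and 17.7% of all genes.

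The difference between the genotypes in their response to hyperoxia, tested as an interaction, passed for no member in either tissue, beside 0.00595% of all genes in lung and 0.00522% in retina. Before adjustment, 4 members in lung reached a p under 0.05 (6.72% of all genes), led by mt-Co2 and Uqcrb, and 7 in retina (10.6%), led by mt-Nd3 and mt-Nd1. DESeq2 called none in lung and 6 in retina, beside 0.757% and 3.23% of all genes. The larger number of members that rose in GSDMD-KO than in WT lungs is therefore not shown to be a difference between the genotypes.

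The mt-Nd3 difference involved a second row of the tables. mt-Nd3 lies at chrM:9459-9806 (GRCm38), and Gm28438, annotated as an unprocessed pseudogene at chr1:24612775-24613119 on the minus strand, is a nuclear copy that is identical to it at 344 of 345 aligned bases. The single substitution is T3C, counted from 1 at the 5′ end of the transcript with the mt-Nd3 base first. The first 33 bases of both are shown because they hold, in capitals, the only aligned base that differs between the 2 rows.
mt-Nd3: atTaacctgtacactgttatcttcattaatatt
Gm28438: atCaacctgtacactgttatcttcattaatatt

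In lung, mt-Nd3 was listed at 398, 344 and 338 CPM in WT-RA and 450, 431 and 340 CPM in WT-O2 mice, and at 16.3, 13.4 and 39.9 CPM in KO-RA and 18.9, 35.9 and 30.1 CPM in KO-O2 mice. Gm28438 took the rest: mt-Nd3 held 74.4% to 100% of the sum of both rows in WT lungs and 4.19% to 10.0% in GSDMD-KO lungs. The sum itself was 358 to 455 CPM in WT-RA, 340 to 450 CPM in WT-O2, 311 to 398 CPM in KO-RA and 451 to 499 CPM in KO-O2 lungs. In retina the pattern was confined to 1 group, with mt-Nd3 at 162, 653 and 567 CPM in KO-RA and 4490 to 6790 CPM in the other 9 retinas, and mt-Nd3 held 5.73% to 11.7% of the sum in KO-RA. With the rows summed, the log2 difference between GSDMD-KO and WT in lung was -0.24 in RA and 0.23 in hyperoxia, in place of -3.95 ± 0.42 (adjusted p = 0.0182) and -3.84 ± 0.42 (adjusted p = 0.0374). In retina in RA it was -0.66 in place of -3.82 ± 0.41 (adjusted p = 0.0284). None of the sums passed the test (adjusted p = 0.526 and 0.841 in lung and 0.282 in retina), nor did the rise of 3.51 in exposed GSDMD-KO retinas, which became 0.17. The genotype calls in lung were also lost with Y-linked expression as a covariate. That in hyperoxia was lost with the erythroid covariate and without WT-O2 lung 1, KO-O2 lung 1 or KO-O2 lung 2, and the call in retina was lost without any 1 of WT-RA retinas 1, 2 and 3, WT-O2 retinas 2 and 3, KO-RA retina 3 and KO-O2 retinas 1 and 2, and without the lens-rich libraries.

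**Figure D5:**
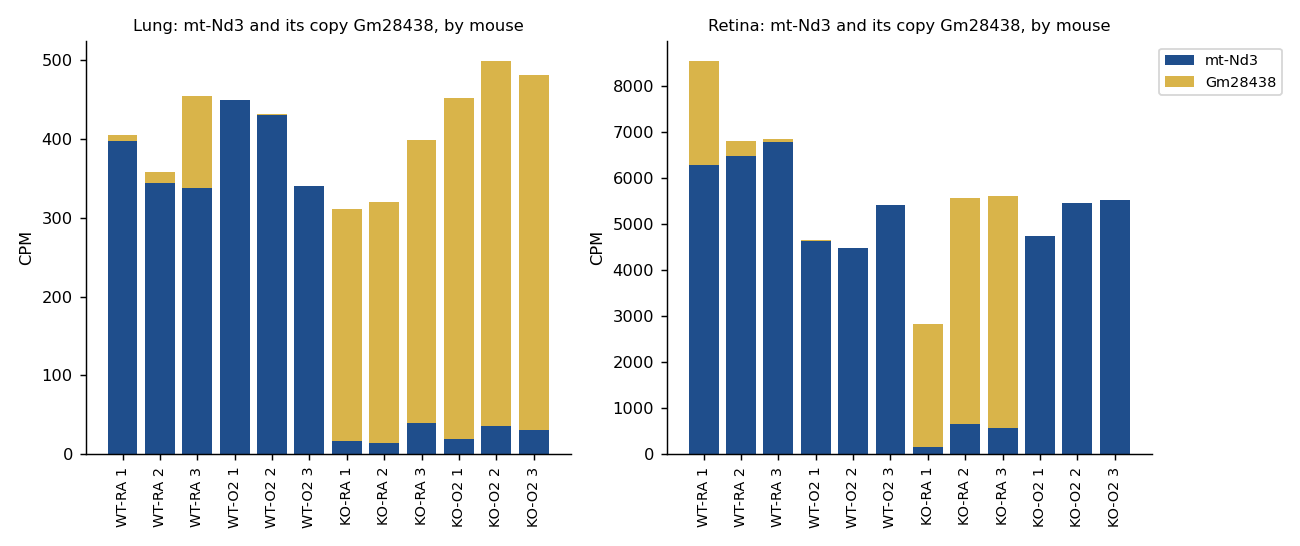
CPM of mt-Nd3 (blue) and of its nuclear copy Gm28438 (yellow), stacked for each mouse, in lung (left) and retina (right). Nearly all of the sum lies on Gm28438 in the 6 GSDMD-KO lungs and the 3 KO-RA retinas, and on mt-Nd3 in most others.

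Other members had such copies too: 9 of the 13 mitochondrially encoded and 25 of the nuclear members had at least 1 gene of at least 95% identity. Most of the counts shared by mt-Co2 and Gm28661 lay on Gm28661, and mt-Co2 held 17.2% to 33.8% of their sum in lung and 5.92% to 10.8% in retina. With all copies summed into their members, 8 of 13 mitochondrially encoded subunits rose in WT lungs, 13 of 13 rose in GSDMD-KO lungs, and 9 of 13 fell in WT retinas and 3 in GSDMD-KO retinas. The summed mt-Co2 rose by 0.40 in WT lungs and 0.72 in GSDMD-KO lungs, where the row alone had 0.10 and 0.80. mt-Atp8 and mt-Atp6, and mt-Nd4l and mt-Nd4, overlap on mitochondrial DNA, so that their values are not independent.

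The remaining members were low or flat. In lung Ndufa11b, Ndufs6b, Cox6c2, Cox7b2, Cox8c and the second gene named Atp5o (ENSMUSG00000116933) had too few counts to be tested, and in retina Ndufs6b, Cox6c2, Cox7b2 and Cox8c. Cox6a1, the common form of the subunit for which Cox6a2 is the muscle form, was listed at 1.02 to 2.80 CPM in lung and 282 to 589 CPM in retina, so its lung values carry little weight. Cox7a1 was at 0.860 to 1.89 CPM in lung, and Cox8b in retina ranged from 1.47 to 61.7 CPM with log2 fold changes of -1.93 and -2.61 that did not pass. Ndufb4c, which the annotation lists as a processed pseudogene, shares sequence with Ndufb4, and the counts of the 2 cannot be separated with confidence.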

How the data were processed

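Expected counts per gene, as deposited by the authors, were used for 12 lung and 12 retina samples. The labels and methods name FastQC, kallisto pseudoalignment and tximport. The labels give mm10 while the methods name GRCm39, and versions are not given in the sources used here. Since reads are divided among similar transcripts, near-identical copies are uncertain. Counts were rounded, low genes were removed with filterByExpr, and TMM scaling and the quasi-likelihood test of edgeR 4.0.16 (R 4.3.3) were applied to the 12 samples of a tissue together, with Benjamini-Hochberg adjustment over all genes tested. Symbols came from GENCODE M21. The 2 tables were fitted separately. Replicates were separate mice, numbered in accession order. CPM values are TMM-scaled. Named were the mitochondrially encoded genes, the isoform pairs, complex II, 9 core subunits, up to 3 genes of each other list, and up to 5 largest rises and falls per comparison at 1 CPM or more, together with members singled out after their values were seen. Members and lists were chosen with earlier results of these data known. DESeq2 1.42.0 and other settings served as alternatives. The fit was tested on simulated data for hyperoxia in WT. Of 50 genes changed 1.25-fold, 15 were recovered in lung and 3 in retina. Of 50 changed 1.5-fold, 35 and 15 were recovered, and of 50 changed 2-fold, 46 and 44. Small changes can thus be missed, more so in retina. The simulation changed only 50 genes at each fold, far fewer than the 8268 genes called in WT lungs and 990 in WT retinas. Benjamini-Hochberg adjustment is stricter when fewer genes change, so these rates do not measure the sensitivity reached in the data. Intervals (SE) cover the spread between mice only. The values of 1 member are not reported here.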

Additional observations from a re-analysis of the deposited data

Results flagged for a closer look

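In lung, Uqcrb, a small subunit of complex III, had log2 fold changes with hyperoxia of -0.12 in WT, which did not pass the test, and 0.19 in GSDMD-KO, which did. RA and O2 mice did not overlap in either genotype, and the interaction had an unadjusted p of 0.00559 and an adjusted p of 0.513 in edgeR's quasi-likelihood test. In retina, mt-Nd3 had -0.43 in WT and 3.51 in GSDMD-KO, with an interaction of 3.94 and an adjusted p of 0.123, and with Gm28438 summed into it the values were -0.61 and 0.17.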

How the results depend on the processing

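No paired analysis was possible because the labels give mouse IDs and no replicate numbers shared between groups. For hyperoxia in the WT lung, 45 members passed, 9 with the erythroid covariate, and 28 to 49 with 1 mouse left out. For the GSDMD-KO lung 60 passed, and 47 to 63 with 1 mouse left out. In lung the genotype difference (1 member, mt-Nd3) became 0 in hyperoxia with the Y-linked covariate, the erythroid covariate or the copies summed, and 0 in RA with the Y-linked covariate, the 6 samples alone or the copies summed, while DESeq2 gave 4 in RA. Leaving out 1 lung gave 0 to 1 in hyperoxia and 1 to 2 in RA. Summing the copies turned the mt-Nd3 difference in hyperoxic lungs from -3.84 to 0.23. In the WT retina 9 passed, 15 with DESeq2, and 6 to 12 with 1 mouse left out. In the GSDMD-KO retina 7 passed, 13 with DESeq2 (5 higher and 8 lower) and 2 to 9 with 1 mouse left out. The count there was 3 without a filter on low counts or with the Y-linked covariate. It was 10 with the 6 samples alone (4 higher and 6 lower). For genotype in the retina, DESeq2 gave 2 in hyperoxia and 8 in RA, and the 1 in RA became 0 with the 6 samples alone, the copies summed, or the lens-rich libraries left out, and 0 to 1 with 1 mouse left out. The retinal interaction (0) gave 6 with DESeq2 and 0 to 1 with 1 mouse left out, the 1 being reached without KO-RA retina 1 or 2 or KO-O2 retina 1. The causes were not tested, apart from the smaller number of samples in some fits. Summing copies, the lens-rich setting and the share with copies added were chosen after seeing the data. The mitochondrial share of counts kept its direction with copies added. Using nuclear counts as the denominator cannot change the order of the libraries, so that setting is no check of the direction. Among named members, 8663 of 8938 alternative values kept their call. Of the values called under at least 1 of the 2 settings compared, 2 turned sign. A further 363 values, called under neither setting, also differed in sign and are counted among those that kept their call. Members averaging 2.14 counts or fewer per library had too little depth to be tested.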

Other observations

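Cox4i2 and Ndufa4l2 had log2 fold changes of opposite sign in lung and retina. In lungs taken from 85% O2 the log2 fold changes against RA were -2.10 and -2.02 for Cox4i2 and -1.04 and -0.94 for Ndufa4l2 in WT and GSDMD-KO. In retinas taken after recovery in RA they were 0.40 and 0.48 for Cox4i2 and 3.36 and 4.13 for Ndufa4l2. The tissues also differed in age, oxygen level and count table, so this difference was not tested.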
